A study of Homo sapiens with 8 samples.

Results

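Ribosome biogenesis and nucleolar genes were compared between A375 cells cultured with and without serum. The set was a list of 55 gene symbols, divided by function into RNA polymerase I (7 genes), small nucleolar ribonucleoproteins (snoRNPs, 9), small-subunit assembly (16), large-subunit assembly (18 listed and 17 measured) and other nucleolar proteins (5). Membership rested on gene names. Of the 55 symbols, 54 were matched to a gene in the counts, out of 58051 genes counted, and all 54 were among the 17671 genes with enough reads to be tested. *BOP1* was not matched and was not analysed here.

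A375 is an established human melanoma cell line. The study used 4 wild-type lines, WT1 to WT4, each derived from A375 by single-cell cloning. Each line was grown to partial confluence with serum, rinsed and kept for 12 h in DMEM with 10% fetal bovine serum or in DMEM without it. Total RNA was depleted of ribosomal RNA and sequenced, which gave 8 libraries, 1 per line and condition. All libraries are therefore clones of 1 cell line with no other genetic change or agent given in the labels, and p-values measure the spread among these clones.

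Growing cells make ribosomes in the nucleolus. RNA polymerase I transcribes the ribosomal RNA precursor, snoRNPs guide its methylation and pseudouridylation, and separate sets of assembly factors fold, cleave and package the small and the large subunit before export. These genes follow growth signals in many cell types, and MYC, which binds the E-box CACGTG together with MAX, is a known activator of many of them.

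Depth ran from 29759279 to 73341551 reads counted on genes per library. Reads aligned to several places, which the authors left uncounted, made up 22.7% of WT1 and 16.8% of WT2 with serum and 5.73% to 10.1% of the other 6 libraries. The WT4 library with serum held the lowest value among the serum libraries for 34 of the 54 genes and the highest for 12, and the WT4 library without serum held the lowest of its condition for 47. The counts labelled WT4 carry another line name in the deposited data, so the identity of that line rests on the labels. Of the melanocytic markers, *SOX10* was at 0 in all 8 libraries, and *PMEL*, *TYR* and *TYRP1* stayed under 1 CPM (counts per 1e6 counted reads, scaled as described below). Reads that fell on more than 1 gene, 8.23% to 11.5% per library, were not counted. A count of 0 therefore does not show that *SOX10* transcripts were absent, and this was not tested. The summed level of all 8 melanocytic markers was 54.8 to 67.7 CPM with serum and 50.9 to 69.2 without it. Markers of undifferentiated melanoma (*AXL*, *SOX9*, *NGFR* and *EGFR*) summed to 523 to 864 CPM with serum and 347 to 814 without. Fibroblast markers summed to 6.47 to 10.4 and 8.09 to 10.5 CPM, epithelial markers to 15.0 to 21.7 and 11.8 to 21.0, and immune and endothelial markers to 0.18 to 0.53 and 0.44 to 1.03. Of the tested markers, *MITF* was lower without serum (40.1 ± 3.89 CPM with, 33.1 ± 2.58 without) and *PDGFRA* higher (0.71 ± 0.20 and 2.39 ± 1.17 CPM).

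The promoters of these genes often held an E-box. RefSeq promoter windows of GRCh38.p14 (250 bases before the transcription start and 50 after it) were given for 47 of the 54 genes, and 22 of the 47 (46.8%) held CACGTG, which reads the same on both strands. The share was 12.2% among tested genes and 8.77% among all 27305 genes with a window. The following sequences are shown because they carry this motif close to the start of genes described below. Each is read 5′ to 3′ on the strand of the gene, with the E-box in capitals. *UTP4* (chr16:69132549-69132648, plus strand), *LYAR* (chr4:4290022-4290121, minus strand) and *DDX21* (chr10:68956547-68956646, plus strand) are given as the 100 bases before the start.
UTP4: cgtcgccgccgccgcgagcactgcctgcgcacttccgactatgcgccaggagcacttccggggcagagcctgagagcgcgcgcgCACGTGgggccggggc
LYAR: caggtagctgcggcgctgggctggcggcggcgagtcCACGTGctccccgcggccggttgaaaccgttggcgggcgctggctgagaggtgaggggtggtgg
DDX21: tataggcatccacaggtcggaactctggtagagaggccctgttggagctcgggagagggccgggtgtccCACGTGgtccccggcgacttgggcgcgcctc

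For genes with the motif at or just after the start, only the 26 bases around it are shown: *PNO1* (chr2:68157887-68157912, plus), *BYSL* (chr6:41921517-41921542, plus), *MRTO4* (chr1:19251809-19251834, plus), *RRP9* (chr3:51941894-51941919, minus), *FBL* (chr19:39846358-39846383, minus) and *MYBBP1A* (chr17:4555342-4555367, minus).
PNO1: tgcagctgcgCACGTGtttcagccgg
BYSL: cttcagtcccCACGTGcgatccttcc
MRTO4: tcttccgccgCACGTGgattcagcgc
RRP9: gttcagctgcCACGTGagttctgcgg
FBL: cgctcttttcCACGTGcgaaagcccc
MYBBP1A: ggccggagcaCACGTGtttcgtgttt

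The 2 genes below had no E-box in their windows and did not pass the test of fold change, unlike 18 of the 25 genes without an E-box, which fell. They are also given as the 100 bases before the start: *UBTF* (chr17:44220883-44220982, minus strand) and *NHP2* (chr5:178153886-178153985, minus strand).
UBTF: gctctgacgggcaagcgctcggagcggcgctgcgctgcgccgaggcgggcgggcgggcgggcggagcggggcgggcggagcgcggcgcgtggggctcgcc
NHP2: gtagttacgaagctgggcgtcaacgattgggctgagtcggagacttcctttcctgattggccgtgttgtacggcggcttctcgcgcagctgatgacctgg

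Without serum, transcripts of 46 of the 54 genes fell and none rose. The comparison used edgeR's quasi-likelihood test across all 17671 genes with Benjamini-Hochberg adjustment and a threshold of 0.05, under which 14.0% of all genes were lower and 11.1% higher. Of the 54, 0 were higher even at an unadjusted p under 0.05, and 0 were higher in DESeq2 (48 lower, 16.7% of all genes) or limma's voom (46 lower, 14.4% of all genes). The median log2 fold change of the 54 genes was −0.41, against 0.03 for all tested genes. Changes were moderate: the fitted values ran from −0.83 for *PNO1* to −0.0021 for *RRP12*, 17 genes fell by at least 0.5 on the log2 scale and 0 by at least 1. Line by line the median difference was −0.44 (WT1), −0.38 (WT2), −0.38 (WT3) and −0.44 (WT4), and 49 genes were lower in all 4 lines, as were 26.6% of all tested genes. In 43 genes every serum-free library lay below every serum library, as in 15.0% of all tested genes.

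As a group, the transcripts of the 54 genes summed to 13500 ± 980 CPM (mean ± SD, n = 4 lines) with serum and to 10094 ± 669 without it, a ratio of 0.748. CPM values here are scaled by TMM, a normalization that equalizes the bulk of genes between libraries. They are shares of the counted RNA from whole cultures, so fewer cells with a transcript and less of it per cell cannot be told apart. Scaling by library size alone moved the median of all genes to 0.15. The set's median was then −0.29, with 32 genes lower and 0 higher (7.72% of all genes were lower), and the split over all genes turned from 2477 lower and 1957 higher to 1365 lower and 3168 higher. It was 1843 lower and 2508 higher, with 38 of the 54 genes lower (10.4% of all genes), under upper-quartile scaling.

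The count of 46 depended on which lines were kept. It was 23 without WT1 (5.35% of all genes were lower in that fit), 27 without WT2 (6.73%), 32 without WT3 (6.47%) and 45 without WT4 (17.4%). The 20 genes that passed in each of these 4 fits were *NOP56*, *NOP58*, *NOLC1*, *RRP9*, *UTP4*, *BYSL*, *PNO1*, *IMP4*, *NOP2*, *PES1*, *DDX18*, *DDX56*, *GNL2*, *GNL3*, *MRTO4*, *EBNA1BP2*, *BRIX1*, *NCL*, *LYAR* and *DDX21*, none of them an RNA polymerase I gene. They were 43.5% of the 46, and 33.2% of the 2477 lower genes overall passed in each of these fits. With single libraries left out, 36 of the 46 (78.3%) passed in each of 8 fits, as did 61.6% of all lower genes. The other 10, *POLR1B*, *RRN3*, *FBL*, *GAR1*, *LTV1*, *IMP3*, *WDR12*, *RRP1*, *RRS1* and *NOC2L*, lost the call in 3 or more of the 8. Leaving out the WT1 and WT2 serum libraries, those with most reads aligned to several places, gave 17 genes lower and 0 higher, with a median of −0.41 and 3.88% of all genes lower. With the line as a block, which compares each line with itself, 48 genes were lower (22.4% of all genes were lower in that fit), and 46 to 50 were lower when any 1 line was left out of it, beside 17.0% to 25.1% of all genes.

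**Figure D1:**
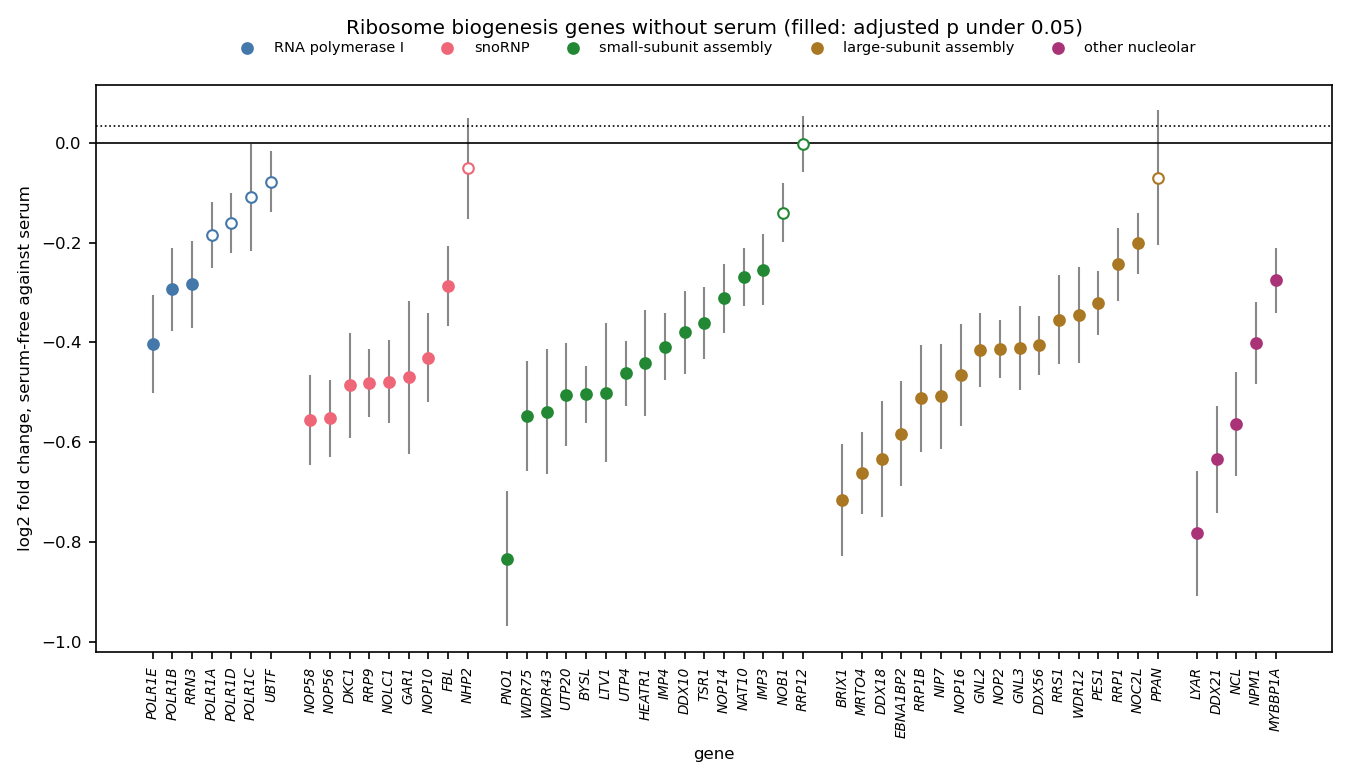
Log2 fold change of each of the 54 genes, serum-free against serum, grouped by function and ordered within each group. Points are edgeR estimates with their standard errors, filled where the adjusted p was under 0.05, and the dotted line is the median of all tested genes (0.03). All 54 points lie below 0, the lowest at −0.83 for *PNO1*, and 4 of the 8 open points are in the RNA polymerase I group.

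Of the 7 RNA polymerase I genes, 3 fell (*POLR1E*, *POLR1B* and *RRN3*), 0 rose, and the median log2 fold change was −0.19. Levels in single libraries are given in the order WT1 to WT4. *POLR1E* (ENSG00000137054), which encodes a polymerase I subunit that helps the enzyme engage at the promoter, was at 80.2, 79.2, 83.0 and 64.4 CPM with serum and at 60.1, 57.5, 63.7 and 50.8 CPM without it. The lowest serum value, in WT4, was above the highest serum-free value, and the log2 fold change was −0.40 ± 0.10 (SE, adjusted p = 0.0152). *POLR1B*, which encodes the large subunit that forms the active centre together with POLR1A, was at 169, 151, 170.0 and 142 CPM with serum and at 129, 123, 143 and 121 CPM without. Here the WT3 library without serum was slightly above the WT4 library with serum, so the groups overlapped, and the log2 fold change was −0.29 ± 0.08 (SE, adjusted p = 0.0279). *RRN3*, whose product brings the polymerase to the promoter, had a log2 fold change of −0.28 ± 0.09 (SE, adjusted p = 0.038). It also overlapped between the groups, and 5 pseudogenes named after it could share its reads.

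*UBTF*, the gene of the factor that keeps ribosomal DNA in an open, transcribable state, was at 178, 168, 179.9 and 189 CPM with serum and at 169, 172, 175 and 160.3 CPM without. The groups overlapped and the log2 fold change of −0.08, adjusted p = 0.39, did not pass the test. The catalytic subunit *POLR1A* (−0.19, adjusted p = 0.0677), *POLR1D* (−0.16, adjusted p = 0.0744) and *POLR1C* (−0.11, adjusted p = 0.495), the last 2 shared with RNA polymerase III, also missed the threshold. With the line as a block, *POLR1A* (adjusted p = 0.0101, range over all settings 8.62e-05 to 0.472) and *POLR1D* (adjusted p = 0.0262, range 0.00368 to 0.642) passed. Of the 7 genes, 0 were lower without WT1, without WT2 or without WT3, and 4 without WT4, with class medians of −0.21, −0.16, −0.21 and −0.18. With 1 library left out, 1 to 4 were lower. Without the WT1 serum library, for instance, the count was 1 (14.3%), beside 9.29% of all genes. *POLR1E* passed in each of the 8 fits without 1 library, *POLR1B* in 3 and *RRN3* in 1. Scaled by library size alone, none of the 7 passed in edgeR, and *UBTF* (0.04) and *POLR1C* (0.01) were above 0 on the log2 scale.

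Among snoRNP genes 8 of 9 fell, with a median log2 fold change of −0.48. Both box C/D scaffold genes fell. *NOP56* (ENSG00000101361) was at 382, 342, 319 and 344 CPM with serum and at 253, 242, 239 and 213 CPM without, and its partner *NOP58* at 203, 183, 197 and 161 CPM and at 134, 128, 133 and 112 CPM. Neither gene's groups overlapped. The log2 fold changes were −0.55 ± 0.08 (SE, adjusted p = 0.00192) for *NOP56* and −0.56 ± 0.09 (SE, adjusted p = 0.00321) for *NOP58*. *FBL*, the gene of the methyltransferase fibrillarin in the same particles, was at 205, 208, 224 and 207 CPM with serum and at 167, 178, 194 and 152 CPM without, with a log2 fold change of −0.29 ± 0.08 (SE, adjusted p = 0.0275), a call kept in 2 of the 8 fits without 1 library.

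*RRP9*, which encodes a protein specific to the U3 snoRNP that guides early cleavage of the precursor, was at 71.8, 76.4, 73.3 and 73.2 CPM with serum and at 52.2, 53.2, 57.4 and 48.3 CPM without. All 4 serum libraries lay within a narrow range above the serum-free ones, and the log2 fold change was −0.48 ± 0.07 (SE, adjusted p = 0.00194). *NOLC1*, which encodes a snoRNP chaperone and had the highest level per length of the class (131 ± 11 RPKM with serum, 93.7 ± 7.62 without), was at 549.8, 498, 559 and 467 CPM and at 390.3, 358, 403 and 337 CPM, a log2 fold change of −0.48 ± 0.08 (SE, adjusted p = 0.00398).

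The box H/ACA core genes, which carry the pseudouridine synthase dyskerin, did not all pass. *DKC1*, the dyskerin gene, fell by 28.6% (adjusted p = 0.00957 in edgeR) and *NOP10* had a log2 fold change of −0.43 ± 0.09 (SE, adjusted p = 0.00792). *GAR1* was near the threshold at −0.47 ± 0.15 (SE, adjusted p = 0.0496), and its groups overlapped, with a low value in the WT4 library with serum. *NHP2* was at 66.7, 73.3, 78.8 and 88.0 CPM with serum and at 72.5, 71.9, 85.0 and 66.6 CPM without. The groups overlapped, the lowest of the serum values being in WT1 and the highest in WT4, and the log2 fold change of −0.05, adjusted p = 0.751, did not pass. Of the *NHP2* exons, 28.1% of bases overlap *RMND5B*, and the strand setting of the counting is not given in the sources used here. The log2 ratio of *NHP2* to *DKC1* (RPKM) was 0.66 ± 0.34 with serum and 1.09 ± 0.09 without, and that of *NOP56* to *NOP58* was 0.30 ± 0.17 and 0.31 ± 0.04, with overlapping groups in both cases. Within lines, the first ratio was higher without serum in each line, and the second was higher in WT1 to WT3 and lower in WT4. The ratios of *NOP56* to *FBL* (−0.49 ± 0.16 and −0.76 ± 0.12) and of *NOP58* to *FBL* (−0.80 ± 0.14 and −1.06 ± 0.09) were lower in each line, also with overlapping groups. These ratios were not tested.

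Of the 16 small-subunit assembly genes, 14 fell and the median log2 fold change was −0.43. *PNO1* (ENSG00000115946), whose product sits on the late small-subunit precursor beside the nuclease NOB1, showed the lowest log2 fold change of all 54 genes. Its level was 62.3, 58.1, 65.8 and 44.5 CPM with serum and 31.3, 33.9, 37.5 and 26.8 CPM without. WT4 had the lowest value in both conditions, the groups did not overlap, and the log2 fold change was −0.83 ± 0.14 (SE, adjusted p = 0.00309), a fall of 43.9%. *NOB1*, which encodes that nuclease, had a log2 fold change of −0.14, adjusted p = 0.113, and did not pass.

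*BYSL*, the gene of another factor of the late precursor, had the smallest p of the set. It was at 62.2, 58.2, 60.3 and 59.8 CPM with serum and at 41.9, 43.5, 43.3 and 40.8 CPM without, 2 tight groups that were well apart, with a log2 fold change of −0.50 ± 0.06 (SE, adjusted p = 0.00108). *UTP4* encodes a subunit of the complex that first meets the nascent transcript. It was at 224, 224, 221 and 199.6 CPM with serum and at 160.1, 159, 164 and 147 CPM without, a log2 fold change of −0.46 ± 0.07 (SE, adjusted p = 0.00196), and the WT4 serum library was below the other 3. *HEATR1*, from the same complex and with the highest level per length of the class (67.3 ± 9.44 RPKM with serum), was at 685, 606, 658 and 492 CPM with serum and at 475, 429, 487 and 406 CPM without, where the lowest serum value, in WT4, was just above the highest serum-free value in WT3. Its log2 fold change was −0.44 ± 0.11 (SE, adjusted p = 0.015).

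*RRP12*, which encodes an export factor of ribosomal precursors, stayed apart from these. It was at 302, 298, 301 and 314 CPM with serum and at 316, 289, 306 and 302 CPM without, with the highest value of all in a serum-free library (WT1), and its log2 fold change of −0.0021, adjusted p = 0.984, did not pass the test. Under library-size scaling alone its log2 fold change was 0.12. The other 10 genes, among them *UTP20*, *WDR43*, *WDR75* and *LTV1*, fell with log2 fold changes of −0.55 to −0.25. Exon overlap with other genes makes the counts of *IMP3* (58.1% of bases) and *LTV1* (34.7%) uncertain.

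Large-subunit assembly genes, with which *DDX18* was placed although its product acts on both subunits, fell in 16 of 17 cases, with a median log2 fold change of −0.41. *BRIX1* (ENSG00000113460), whose product acts in an early step around the large-subunit rRNA, was at 151, 139.6, 148 and 111 CPM with serum and at 88.9, 89.4, 86.3 and 70.1 CPM without. The groups were far apart, although WT4 was lowest in both, and the log2 fold change was −0.72 ± 0.11 (SE, adjusted p = 0.00271). *MRTO4*, which encodes a factor that holds the place of the ribosomal stalk protein, was at 180.1, 165, 168 and 156 CPM with serum and at 107, 111, 113 and 91.4 CPM without, a log2 fold change of −0.66 ± 0.08 (SE, adjusted p = 0.00127). *NOP2*, the gene of an rRNA methyltransferase, was at 213, 196, 206 and 215 CPM with serum and at 157, 149, 159 and 159 CPM without, with a log2 fold change of −0.41 ± 0.06 (SE, adjusted p = 0.002) and no overlap between the groups.

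The helicase gene *DDX18* (−0.63, adjusted p = 0.00478), *EBNA1BP2* (−0.58, adjusted p = 0.00454) and *NIP7* (−0.51, adjusted p = 0.00773) were among the lower log2 fold changes of the class. The GTPase genes *GNL2* (−0.42, adjusted p = 0.0043) and *GNL3* (−0.41, adjusted p = 0.00753) both fell. *PES1* and *WDR12* encode partners in the PeBoW complex. Their log2 fold changes were −0.32 ± 0.06 (SE, adjusted p = 0.00704) and −0.34 ± 0.10 (SE, adjusted p = 0.0269), and the *WDR12* groups overlapped. Of the paralogs *RRP1* and *RRP1B*, both fell, with log2 fold changes of −0.24 ± 0.07 (SE, adjusted p = 0.0341) and −0.51 ± 0.11 (SE, adjusted p = 0.00838). *NOC2L*, which had the highest level per length of the class (79.2 ± 4.46 RPKM with serum), was at 421, 432, 427 and 475 CPM with serum and at 381, 386, 394 and 364 CPM without. The difference was small but free of overlap, with a log2 fold change of −0.20 ± 0.06 (SE, adjusted p = 0.038) and a call kept in 1 of the 8 fits without 1 library.

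*PPAN* was the exception in this class. Its level was 13.3, 16.4, 16.2 and 21.0 CPM with serum and 15.7, 17.7, 15.7 and 14.6 CPM without. The lowest and the highest of the 8 values were both in serum libraries, WT1 and WT4, and the log2 fold change of −0.07, adjusted p = 0.744, did not pass. Of its exon bases, 49.2% overlap the neighbouring *P2RY11* and the read-through gene that joins both, so its count is uncertain.

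All 5 other nucleolar genes fell, with a median log2 fold change of −0.56. *LYAR* (ENSG00000145220), a nucleolar regulator of cell growth, was at 149, 126, 131 and 108 CPM with serum and at 84.1, 77.7, 78.3 and 59.0 CPM without, a log2 fold change of −0.78 ± 0.13 (SE, adjusted p = 0.00291). *DDX21*, which encodes an RNA helicase that works in both rRNA transcription and processing, was at 850.4, 746, 812 and 601 CPM with serum and at 508, 480.3, 515 and 435 CPM without. WT4 was the lowest of each condition, yet the groups did not overlap, and the log2 fold change was −0.63 ± 0.11 (SE, adjusted p = 0.00364). *MYBBP1A*, a nucleolar protein gene named for its binding to MYB, was at 419.6, 413, 444 and 460.1 CPM with serum and at 359, 349, 387 and 339.8 CPM without. Here WT4 was the highest serum library and the lowest serum-free one, and the log2 fold change was −0.28 ± 0.07 (SE, adjusted p = 0.0139).

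*NPM1*, the gene of the nucleolar chaperone nucleophosmin, was by far the highest of the 54 per length. Its level was 3005, 2768, 2929 and 2427 CPM with serum and 2208, 2187, 2146 and 1884 CPM without, or 335 ± 30.9 and 253 ± 18.1 RPKM, and the log2 fold change was −0.40 ± 0.08 (SE, adjusted p = 0.00767). Of its pseudogenes, 49 are named in the annotation, with 1279 counts between them over the 8 libraries against 940061 for *NPM1* itself. *NCL*, the nucleolin gene, had a log2 fold change of −0.56 ± 0.11 (SE, adjusted p = 0.00526).

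**Figure D2:**
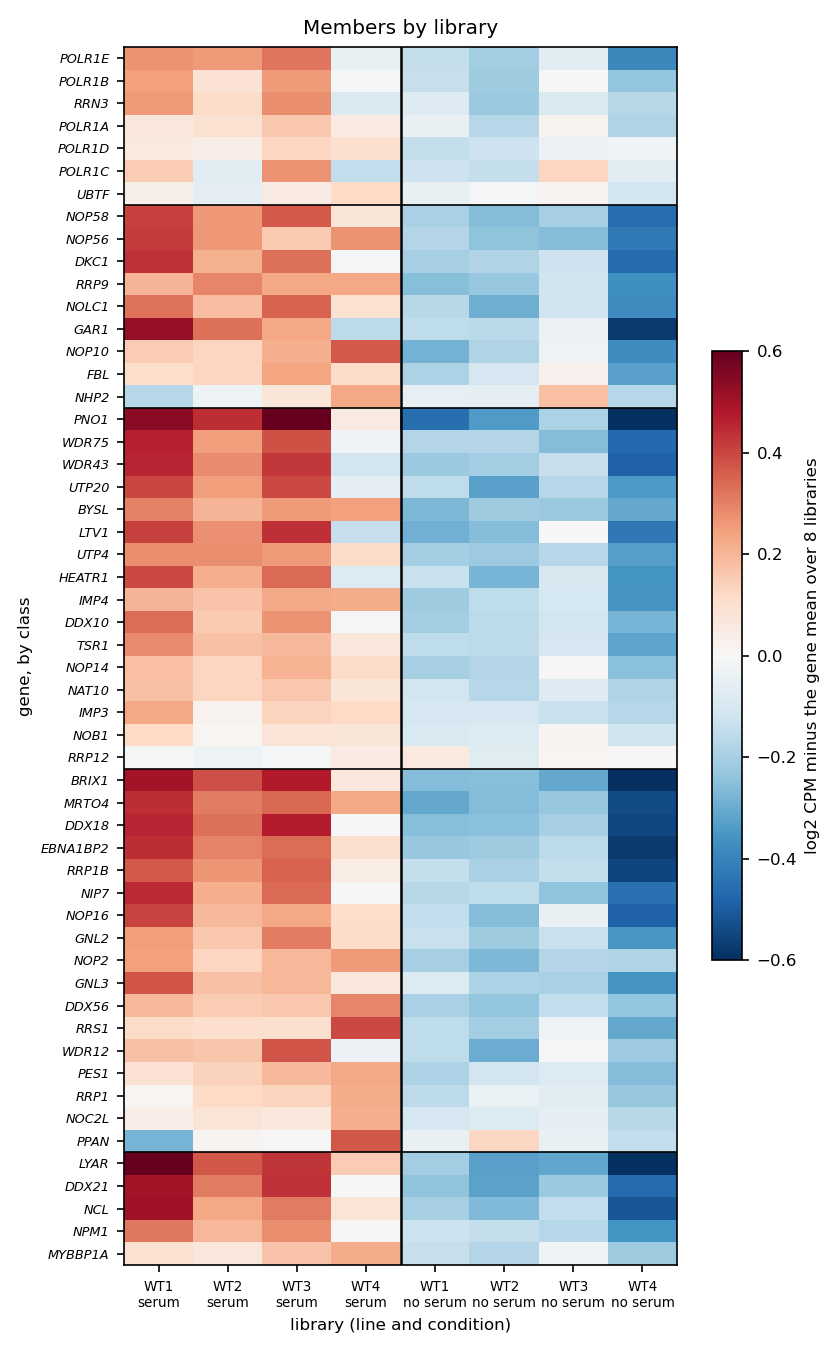
Level of each of the 54 genes in each of the 8 libraries, as log2 CPM minus the mean of that gene over all libraries (color scale, −0.6 to 0.6), with genes grouped by function. Serum libraries are mostly red and serum-free libraries mostly blue, the WT4 serum column is palest, and *RRP12*, *UBTF*, *NHP2* and *PPAN* show no such division.

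Per length, all 54 genes were above the median of all tested genes with serum. Without serum *DDX10*, at 2.39 RPKM, was below the median of 2.93. RPKM, which divides CPM by the length of the merged exons in kilobases, ran from 3.10 for *DDX10* to 335 for *NPM1* with serum. The median of the set was 36.5 with serum and 28.5 without, against 2.74 for all tested genes with serum. By class, the median with serum was 17.5 RPKM in the RNA polymerase I genes, 52.0 in the snoRNP genes, 36.2 and 36.3 in the genes of small- and large-subunit assembly, and 81.1 in the other nucleolar genes. By annotation, 9 of the 54 genes hold 22 genes of small nucleolar or Cajal body RNAs within their bounds on the same strand, among them *NOP56*, *NOP58*, *DKC1*, *NCL* and *GNL3*. Of these 9 host genes, *POLR1C* and *PPAN* did not pass the test.

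The GC content of the transcript moved with the fold change. Across the 54 genes, which share the same 8 libraries, Spearman's rho between log2 fold change and GC content was 0.53, and it was 0.36 across all tested genes with a known GC content. Of the genes with 35 to 42% GC, 14 of 14 were lower (24.6% of all genes in that range), with 42 to 50% GC 14 of 16 (14.9%), with 50 to 56% GC 10 of 13 (10.1%) and with 56 to 63% GC 8 of 11 (5.79%). In the WT4 serum library, the deviation of the 54 genes from the serum mean had a rho of 0.79 with GC content, and the other serum libraries had −0.70 (WT1), −0.32 (WT2) and −0.66 (WT3). Without serum these values were −0.41, −0.08, −0.16 and 0.44 for WT1 to WT4. With the GC correction alone, 46 of the 54 genes were lower, the count without any correction, and 15.1% of all genes were lower. A fit with the line as a block and a correction for GC content gave 53 of 54 genes lower, where 22.9% of all genes were lower. Among the 46 genes that fell without correction, rho with GC content was 0.43 before and −0.41 in that fit. Among the other 8 it was 0.76 and −0.43, so in both groups the relation to GC content turned its sign. The median log2 fold change in that fit with both terms was −0.40, and only *POLR1C* (−0.06, adjusted p = 0.421, range over all settings 0.0405 to 0.945) did not pass. *RRP12* (−0.17, adjusted p = 0.00306), *UBTF* (−0.18, adjusted p = 0.00171) and *NHP2* (−0.19, adjusted p = 0.00773) passed there, while their highest adjusted p in another setting was 0.994, 0.896 and 0.991.

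**Figure D3:**
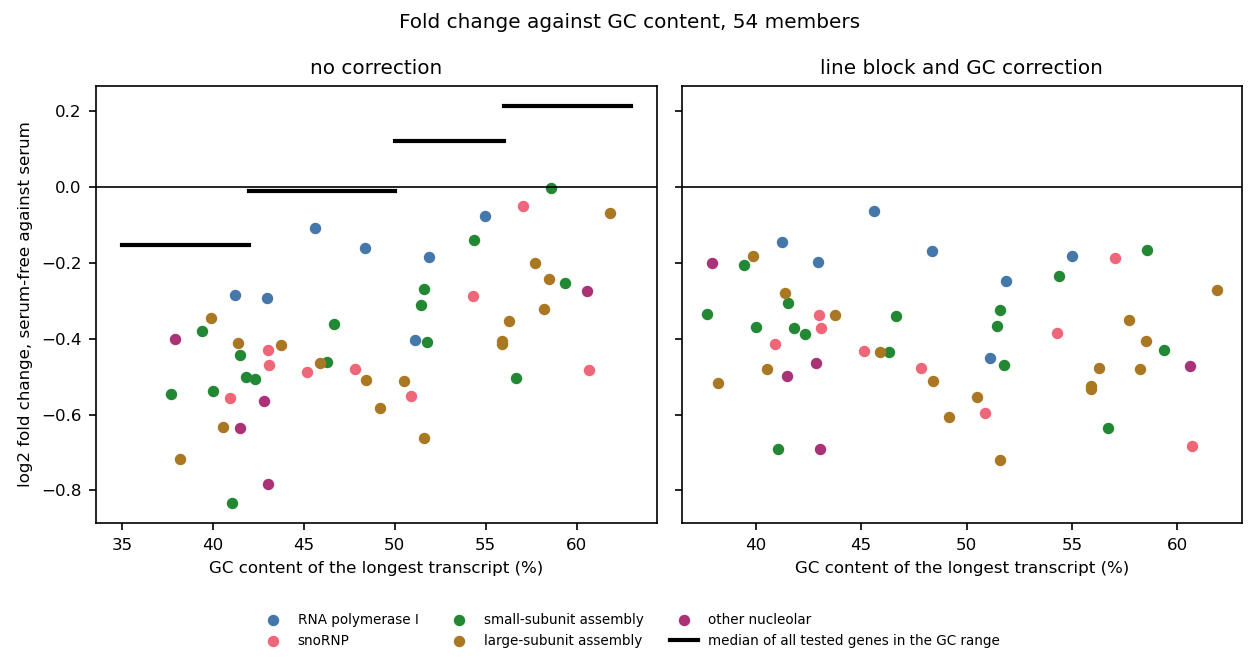
Log2 fold change of the 54 genes against the GC content of the longest transcript, without correction (left) and with a line block and a GC correction (right), colored by class. Black bars on the left mark the median of all tested genes in each GC range, which rises from −0.15 to 0.21. The set lies mostly below these bars on the left, and on the right its rho with GC content is −0.15.

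By class, none of the 6 RNA polymerase I genes with a window held an E-box, against 4 of 7 snoRNP genes, 9 of 15 small-subunit genes, 6 of 14 large-subunit genes and 3 of 5 other nucleolar genes. All 22 genes with an E-box fell, with a median log2 fold change of −0.47 and a range from −0.83 to −0.27. Of the 25 without one 18 fell, with a median of −0.34, and the 7 with a window that did not pass the test were all without. These 25 included all 6 RNA polymerase I genes with a window, of which 2 fell. Within classes, medians with and without the motif were −0.45 and −0.49 (snoRNP), −0.50 and −0.37 (small-subunit), −0.41 and −0.38 (large-subunit) and −0.63 and −0.48 (other nucleolar). With the line as a block *POLR1A* and *POLR1D* of the 7 also passed, and with the GC correction added all but *POLR1C*. The sequences of *PNO1*, *LYAR* and *UTP4* printed above are examples with an E-box, and those of *UBTF* and *NHP2* are examples without one. Over all tested genes with a window with no regard to function, 19.8% of 1456 genes with an E-box were lower, and 16.6% of 10487 without. A match in these letters does not show that a factor binds there.

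Position was another shared feature. Of the 25 E-boxes in the windows, 21 (84.0%) began within 50 bases of the transcription start, compared with 36.9% of the 2821 E-boxes in all windows, which span 300 bases each. Other motifs were searched on both strands. The ETS motif CCGGAAG was in 38.3% of the 47 genes and in 21.0% of tested genes, the GC box GGGCGG in 74.5% and 74.4%, the CCAAT box in 44.7% and 43.0%, AAGATGG (YY1) in 14.9% and 8.88%, GCATGCG (NRF1) in 8.51% and 7.41%, and TATAAA in 4.26% and 9.02%. In windows of the other pathway genes described next, 27 of 103 (26.2%) held the E-box, and of cytosolic ribosomal protein genes 4 of 63 (6.35%). In these lists the median log2 fold change was not lower with the motif. The median of the other pathway genes was −0.27 with an E-box (18 of 27 lower) and −0.35 without (45 of 76 lower). Of the ribosomal protein genes, 0 of 4 were lower with an E-box and 5 of 59 without, with medians of −0.05 and −0.07. No window was given for *POLR1E*, *NOP58*, *NOLC1*, *RRP12*, *RRP1B*, *RRS1* and *DDX18*.

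**Figure D4:**
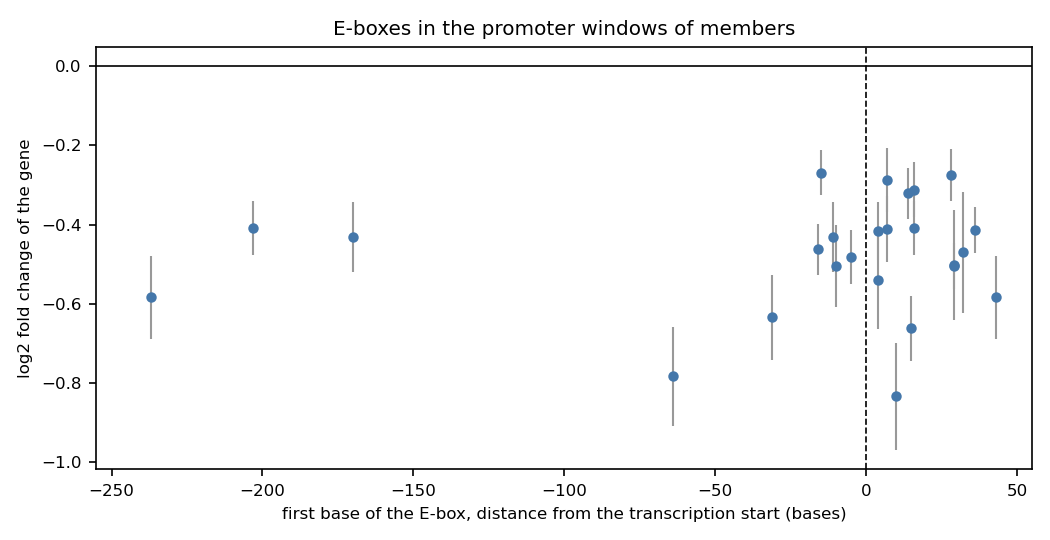
Position of each of the 25 E-boxes in the promoter windows of 22 genes (horizontal axis, bases from the transcription start to the first base of the motif) against the log2 fold change of the gene with its standard error (vertical axis). Most points cluster around the start, 21 of 25 within 50 bases, and all lie below 0.

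Of 124 further factors of the same pathway tested, 77 (62.1%) were lower and 0 higher (3 at an unadjusted p under 0.05 in edgeR, 1 after adjustment in DESeq2 and in voom), with a median log2 fold change of −0.34. In the same edgeR fit 14.0% of all genes were lower and 11.1% higher. Among other RNA polymerase I factors 5 of 10 fell, including *TCOF1* (506 ± 16.7 CPM with serum, 370 ± 30.6 without, log2 fold change −0.45, adjusted p = 0.00262), the gene of the nucleolar scaffold treacle, and the polymerase subunit gene *POLR1F* (−0.45, adjusted p = 0.0139). Of 10 other snoRNP factors 5 fell, including *SNU13* (155 ± 2.85 CPM with serum, 113 ± 6.25 without, log2 fold change −0.46, adjusted p = 0.00174), a core protein gene of box C/D particles, and *RPAP3* (−0.46, adjusted p = 0.00647), from the chaperone complex that assembles them.

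Other small-subunit factors fell in 31 of 39 cases, among them *KRR1* (−0.54, adjusted p = 0.0029) and *RRP36* (−0.43, adjusted p = 0.00262), and other large-subunit factors in 28 of 49, among them *CCDC86* (82.5 ± 3.76 CPM with serum, 54.4 ± 0.86 without, log2 fold change −0.60, adjusted p = 8.28e-04) and the methyltransferase gene *FTSJ3* (−0.44, adjusted p = 0.00204). Of 16 exosome and trimming genes 8 fell, including *ISG20L2* (−0.46, adjusted p = 0.00116) and *EXOSC3* (−0.55, adjusted p = 0.00354). The count of 77 was 36 without WT1 (where 5.35% of all genes were lower), 40 without WT2 (6.73%), 42 without WT3 (6.47%), 86 without WT4 (17.4%, with 4 of the pathway genes higher) and 50 when scaled by library size alone (7.72%). With the line as a block, 93 genes were lower and 3 higher, *NOP53*, *TAF1C* and *EXOSC5*, which were named after their values were seen. Of all genes, 22.4% were lower and 23.2% higher with that block.

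Cytosolic ribosomal protein genes, whose products are assembled by these factors, were counted for comparison. Of 79 tested, 6 were lower and 1, *RPL3*, was higher (14.0% and 11.1% of all genes), with a median log2 fold change of −0.07. The lines differed, with median differences of −0.06 (WT1), −0.04 (WT2), 0.08 (WT3) and −0.22 (WT4). Under upper-quartile scaling the median was −0.0070. By library size alone it was 0.05, with 2 of these genes lower and 6 higher, where 7.72% of all genes were lower and 17.9% higher. With the line as a block 18 were lower, 22.8% of the list, where 22.4% of all genes were lower. Without the block the count was 1 without WT1 or without WT2 and up to 16 without the WT3 serum-free library. In that last fit 3438 genes passed in either direction, against 4434 with all libraries, so the count depended on that library. Of RNA polymerase II subunit genes 4 of 12 were lower, and of RNA polymerase III subunit genes 5 of 11 were lower and 1, *POLR3GL*, higher, next to 3 of 7 for RNA polymerase I. The differences between these lists were not tested.

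**Figure D5:**
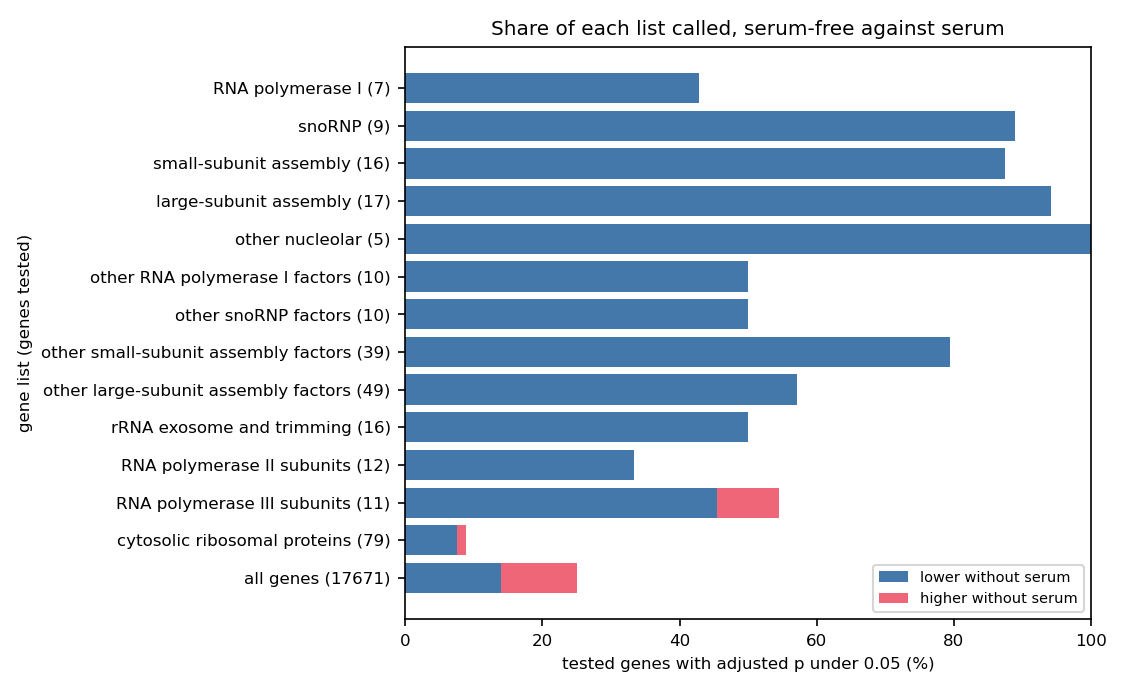
Share of tested genes (%) that were lower (blue) or higher (red) without serum at an adjusted p under 0.05, for each class of the set, for other pathway genes and for comparison lists, with the number tested in brackets. The bars of the snoRNP, subunit assembly and other nucleolar classes reach 87.5% to 100%, while the bars of cytosolic ribosomal proteins and of all genes hold 7.59% and 14.0% lower.

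Transcripts of *MYC*, the growth regulator that binds the E-box with MAX, were at 29.8 ± 4.87 CPM with serum and 27.8 ± 5.57 without (log2 fold change −0.10 ± 0.15 SE, adjusted p = 0.671 in edgeR). *MAX* was at 48.9 ± 3.85 and 40.5 ± 2.61 CPM and fell (−0.27 ± 0.08, adjusted p = 0.0296). Of the 11 tested genes of this network, 2 were lower and 3 higher, against 1 and 1 without WT1, 1 and 2 without WT2 or without WT3, 2 and 3 without WT4, and 2 and 2 under RLE scaling. With all lines kept, 14.0% of all genes were lower and 11.1% higher, and 5 of the 11 log2 fold changes were below 0. The 3 higher ones, named after their values were seen, encode proteins that compete with MYC for MAX or its sites: *MXD4* (18.4 ± 5.91 CPM with serum, 47.5 ± 9.59 without, log2 fold change 1.37 ± 0.24, adjusted p = 0.00536), *MNT* (0.52 ± 0.12, adjusted p = 0.0134) and *MXI1* (0.77 ± 0.25, adjusted p = 0.0496). These are RNA levels, and the amount of MYC protein was not measured.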

How the data were processed

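The genes and the lists they were compared with were chosen with earlier results of these data known, so their direction is not independent evidence. The authors deposited counts of reads on each gene without normalization, which per the labels' processing notes were made with cutadapt, TopHat2 2.0.11 and HTSeq on GRCh38. The paper's methods name hg19 and Cufflinks FPKM values, which were not used here, and the annotation release and strand setting are not given in the sources used here.

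Counts of 8 libraries (29759279 to 73341551 on genes) were filtered (filterByExpr) and TMM-scaled, and serum-free libraries were tested against serum libraries in edgeR 4.0.16 under R 4.3.3, with robust glmQLFit followed by glmQLFTest and no block. Benjamini-Hochberg adjustment covered all 17671 genes kept, and the threshold was 0.05. Of 58051 genes, 55604 were given a symbol through their Ensembl identifier, and *PTRF* was matched as *CAVIN1*. RPKM used merged exon length. GENCODE gene models lifted to GRCh37, which is not the build of the counts, supplied these lengths and the GC content, known for 17425 tested genes. Line differences and library plots used log2 CPM with a prior count of 2. Gene positions and promoter windows are from RefSeq, GRCh38.p14. The GC correction took a lowess curve (span 0.3) from each library. The edgeR fits without and with the block over all 8 libraries were tested on simulated counts with known changes, and the other fits were not.

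The same line under both conditions was taken as a pair. Deviations from the condition means correlated at 0.403, 0.591, 0.456 and 0.604 between libraries of the same line, and at most at 0.126 between different lines. No 2 libraries agreed within sampling noise. Alternatives were the line as a replicate block, also with a GC correction, DESeq2 1.42.0, limma 3.58.1 voom, upper-quartile and RLE scaling, tests of every gene or of genes with 10 or more counts in each library, and each library or line left out. The forms of scaling without TMM, the GC correction without a block, the joint removal of both serum libraries with many reads aligned to several places, and the block in other tools or with a line left out were added after the data were seen.

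The genes named with values were, in each class, the 2 with the smallest p past the threshold, those with the lowest and the highest fitted log2 fold change and the one with the highest RPKM, and in each list of other pathway genes the 2 with the smallest p past the threshold and any largest rise past it, with *MYC* and *MAX*. Other names were chosen after their values were seen.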

Additional observations from a re-analysis of the deposited data

Results flagged for a closer look

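In 5 of 114 sets of 4 libraries searched (each of the 54 genes in each condition, their summed level and the shares of uncounted reads), 1 library stood further from the other 3 than Dixon's criterion for 4 values allows. About 5.7 such sets would come from chance alone at 1 in 20. With serum, *FBL* was at 224 CPM in WT3, with the next value at 208 and the lowest at 205, *UTP4* was at 199.6 CPM in WT4, where the others began at 221, and *RRS1* was at 104 CPM in WT4, with the others at no more than 85.5. Without serum, *RRP1B* was at 99.5 CPM and *BRIX1* at 70.1 CPM in WT4, and the nearest other lines were at 127 and 86.3 CPM. All 5 genes fell in edgeR's test with these libraries included.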

How the results depend on the processing

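No called value turned its direction under any alternative, and of the 54 genes the replicate block changed only the calls of *POLR1A* and *POLR1D*. It moved RNA polymerase II subunit genes from 4 lower and 0 higher to 6 and 1, RNA polymerase III subunit genes from 5 lower to 7, and the MYC and MAX network from 2 lower and 3 higher to 3 and 4. Over all genes it moved the shares from 14.0% lower and 11.1% higher to 22.4% and 23.2%. Of the 54 genes, 49 stayed below 0 in all 29 other settings, and *POLR1C*, *UBTF*, *NHP2*, *RRP12* and *PPAN* did not.

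Over all genes 4434 passed in edgeR without a block. The number was 8067 with the replicate block, 8208 with the block and GC correction, 7618 in DESeq2 with the block, 8161 in voom with the block, 1098 without the WT1 and WT2 serum libraries, and 1589 to 6128 when 1 library or line was left out (up to 8938 with the block). Of the 54 genes, 23 to 47 were lower in those leave-one-out fits (up to 50 with the block) and 17 without both serum libraries. Without the WT1 serum library, for instance, 38 (70.4%) were lower, beside 9.29% of all genes. The median log2 fold change of the 54 genes was −0.35 under upper-quartile scaling, −0.29 by library size alone and −0.45 to −0.37 with 1 library or line left out.

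Of the other pathway genes, 36 to 90 were lower in the leave-one-out fits (82 to 99 with the block), 93 with the block, 50 by library size alone and 21 without both serum libraries. Higher were 3 with the block in edgeR, DESeq2 or voom, 1 in DESeq2, 1 in voom, 2 under upper-quartile scaling, 1 with no filter, 1 with the stricter filter, 3 by library size alone and 0 to 4 in the leave-one-out fits (0 to 5 with the block). Of cytosolic ribosomal protein genes, 18 were lower with the block, 26 with the block and GC correction, 11 in DESeq2, 2 under upper-quartile scaling, 2 by library size alone (with 6 higher), 19 in DESeq2 and 21 in voom with the block, 1 without both serum libraries and 1 to 16 in the leave-one-out fits (7 to 23 with the block, where 10 was the count without WT2). Of all genes, 22.4% were lower with the block and 22.9% with the block and GC correction. The share was 16.7% in DESeq2, 10.4% under upper-quartile scaling and 7.72% by library size alone.

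The median level of the set with serum was 35 RPKM by library size alone, 51.9 with the longest transcript's length and 149 as TPM, and without serum it was 40.6 and 129 for the last 2. The share of genes with an E-box was 12.2% over tested genes in place of 8.77% over all. The causes of these changes were not tested.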
